A study of Mus musculus with 3 samples.

Results

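The Mmp, Adamts and Timp genes encode the secreted and membrane-bound metalloproteases that cut the extracellular matrix, and their tissue inhibitors. They were taken as every gene of the deposited gene list whose symbol starts with Mmp and a digit, with Adamts, or with Timp and a digit. That gave 50 of 32285 genes: 22 Mmp, 19 Adamts, 5 Adamtsl and 4 Timp genes. The rule uses gene names only, though the family was picked for description with earlier results of these data known.

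Hearts of male C57/B6J mice that were wild type (WT) were set beside hearts of the same strain and sex carrying a point mutation, either Myh6-R404Q or Prkag2-p.R299Q. Myh6 encodes the alpha myosin heavy chain of heart muscle, and Prkag2 a regulatory subunit of AMP-activated protein kinase. All cells were released with collagenase, pressed through a 70 µm strainer and profiled with droplet sequencing of transcript 3′ ends, in which captured transcripts are told apart by a unique molecular identifier (UMI). Each genotype had 1 library, and the labels name no treatment. Neither the age of the mice nor how many went into a library is given in the sources used. Differences between genotypes thus lack replicates, and none was tested. Intervals below cover counting error only, at the 95% level, and the genotype and the single library cannot be told apart.

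Matrix metalloproteases (Mmp) are zinc proteases made as inactive proenzymes, and they differ in substrate: collagenases and gelatinases open collagens, stromelysins cut proteoglycans and other matrix proteins, and membrane-type members work at the cell surface. Adamts enzymes carry thrombospondin repeats that bind matrix. Some cleave proteoglycans such as versican and aggrecan, others remove the amino-terminal propeptide of fibrillar procollagens, and the Adamts-like proteins (Adamtsl) lack the protease domain. Timp proteins block Mmps, and Timp3 also blocks several Adamts enzymes. In the heart, fibroblasts, valve and vessel cells and leukocytes are known sources.

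There were 9 Mmp members side by side on chromosome 9 between positions 7272514 and 7699585 of mm10, and 3 of them gave calls below: Mmp3, Mmp13 and Mmp27. Their start-proximal sequence is shown because Mmp3 had the lowest ratio to WT of the measured members in fibroblast-like cells of both mutants. Mmp10, another of the 9 and also shown, gave no call. It had 0, 0 and 1 UMIs in the cells kept from WT, Myh6-R404Q and Prkag2-p.R299Q. Capitals mark the AP-1 motif TGANTCA, searched on both strands; it reads the same on either strand and overlaps no other motif searched. AP-1 is the Fos and Jun transcription factor dimer. Each line gives the 100 bases before the transcript start, 5′ to 3′, from RefSeq promoters on GRCm38.p6. All lie on the + strand of chromosome 9: Mmp3 at chr9:7445722-7445821, Mmp13 at chr9:7272414-7272513, Mmp10 at chr9:7502242-7502341 and Mmp27 at chr9:7571296-7571395.
Mmp3: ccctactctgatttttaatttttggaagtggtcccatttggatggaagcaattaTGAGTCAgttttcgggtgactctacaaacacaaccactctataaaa
Mmp13: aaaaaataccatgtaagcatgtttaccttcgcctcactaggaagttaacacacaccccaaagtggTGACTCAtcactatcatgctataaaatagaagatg
Mmp10: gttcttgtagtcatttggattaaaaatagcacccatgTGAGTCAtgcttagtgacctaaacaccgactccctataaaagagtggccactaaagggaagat
Mmp27: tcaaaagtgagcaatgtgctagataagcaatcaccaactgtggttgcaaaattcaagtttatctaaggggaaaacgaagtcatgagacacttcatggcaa
The motif began 46 bases before the start in Mmp3, 35 in Mmp13 and 63 in Mmp10, and these letters were not in the 250 bases before the start of Mmp27. Of the 50 members, 35 had a promoter entry. The motif stood within 250 bases before a start in 7 of them (Mmp3, Mmp7, Mmp10, Mmp12, Mmp13, Mmp1b and Mmp20), all among the 9 neighbours on chromosome 9. Over all 27025 genes with an entry, 7.82% held it. The E-box CACGTG was in 2 of the 35, Adamts17 and Mmp7, against 6.86% of all genes. A match is a match of letters and was not measured as a bound site.

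The WT, Myh6-R404Q and Prkag2-p.R299Q libraries held 18033, 12662 and 7951 barcodes, with 41047991, 38251499 and 31385005 UMIs. After removal of doublets, 14831, 10555 and 6840 cells remained, with median depths of 1413, 1851 and 2344 UMIs, so depth differed with genotype. The deposited Myh6-R404Q matrix also held all cells of the other 2 libraries, entry for entry, and the 12662 barcodes counted here are the rest, taken as Myh6-R404Q by elimination. With that matrix used whole, the 6 fibroblast-like calls in Myh6-R404Q given below fell to 1, that of Mmp3, where WT and Prkag2-p.R299Q cells are part of the Myh6-R404Q sums. The libraries shared between 28 and 51 barcode sequences by pair. Cells were clustered with the members left out of the clustering genes, and 13 classes were named from markers. The 8 that held 200 cells or more in every library entered the comparisons. Levels are counts per 1000000 UMIs of a class (CPM), which are not scaled by gene length, so levels are compared between classes and libraries and never between genes. Over all kept cells, the mutated genes stood at 6437, 6108 and 7178 CPM for Myh6 and at 137, 120 and 126 CPM for Prkag2, which does not check a point mutation. Transcripts freed from broken cells reach all droplets. Muscle transcripts made up 0.614% to 2.90% of UMIs in the 7 classes other than cardiomyocyte-like cells, where they made up 5.92% to 6.68%.

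Over all barcodes, before filters and removal of doublets, a UMI was found for 47 of the 50 members in the WT library. It was found for 48 in that of Myh6-R404Q and for 47 in that of Prkag2-p.R299Q. The levels that follow are those of kept cells. In a compared class of at least 1 library, 34 members reached 10 CPM, the minimum for a ratio. The remaining 16 stayed under it in every compared class of every library, among them the gelatinase Mmp9 (at most 6.43 CPM), the neutrophil collagenase Mmp8 and the aggrecanase Adamts4 (at most 7.25 CPM). Mmp20, an enzyme of tooth enamel, had 0 UMIs in the kept cells of all libraries. A count of 0 allows a level of up to 0.106, 0.115 and 0.132 CPM over all cells of the 3 libraries.

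Of the compared classes, fibroblast-like cells held the largest number of members at their highest level. The 10 fibroblast markers summed to 6507, 8508 and 8532 CPM there in WT, Myh6-R404Q and Prkag2-p.R299Q, against at most 4320 CPM in any other compared class. Of the 29 members with 10 CPM in a compared class in all 3 libraries, 11 were highest in fibroblast-like cells in all 3 (Mmp2, Mmp11, Mmp16, Adamts2, Adamts5, Adamts10, Adamts14, Adamts15, Adamts19, Adamtsl2 and Adamtsl3). Over all genes measured the same way, fibroblast-like cells were highest for 782 of 12881, or 6.07%. Of the other members, 3 were highest in cardiomyocyte-like cells, 3 in endothelial-like, 2 in mesothelial-like, 1 in lymphatic endothelial-like and 1 in endocardial-like cells. For the last 8 the highest class changed between libraries.

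Summed over all members, fibroblast-like cells held 3356, 3560 and 3608 CPM (WT, Myh6-R404Q and Prkag2-p.R299Q, the order of every such triplet below). Lymphatic endothelial-like cells held a like amount, 3553, 3115 and 3534 CPM. Macrophage-like cells had the lowest sums, 756, 680 and 629 CPM, and cardiomyocyte-like cells 836, 706 and 732 CPM.

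**Figure D1:**
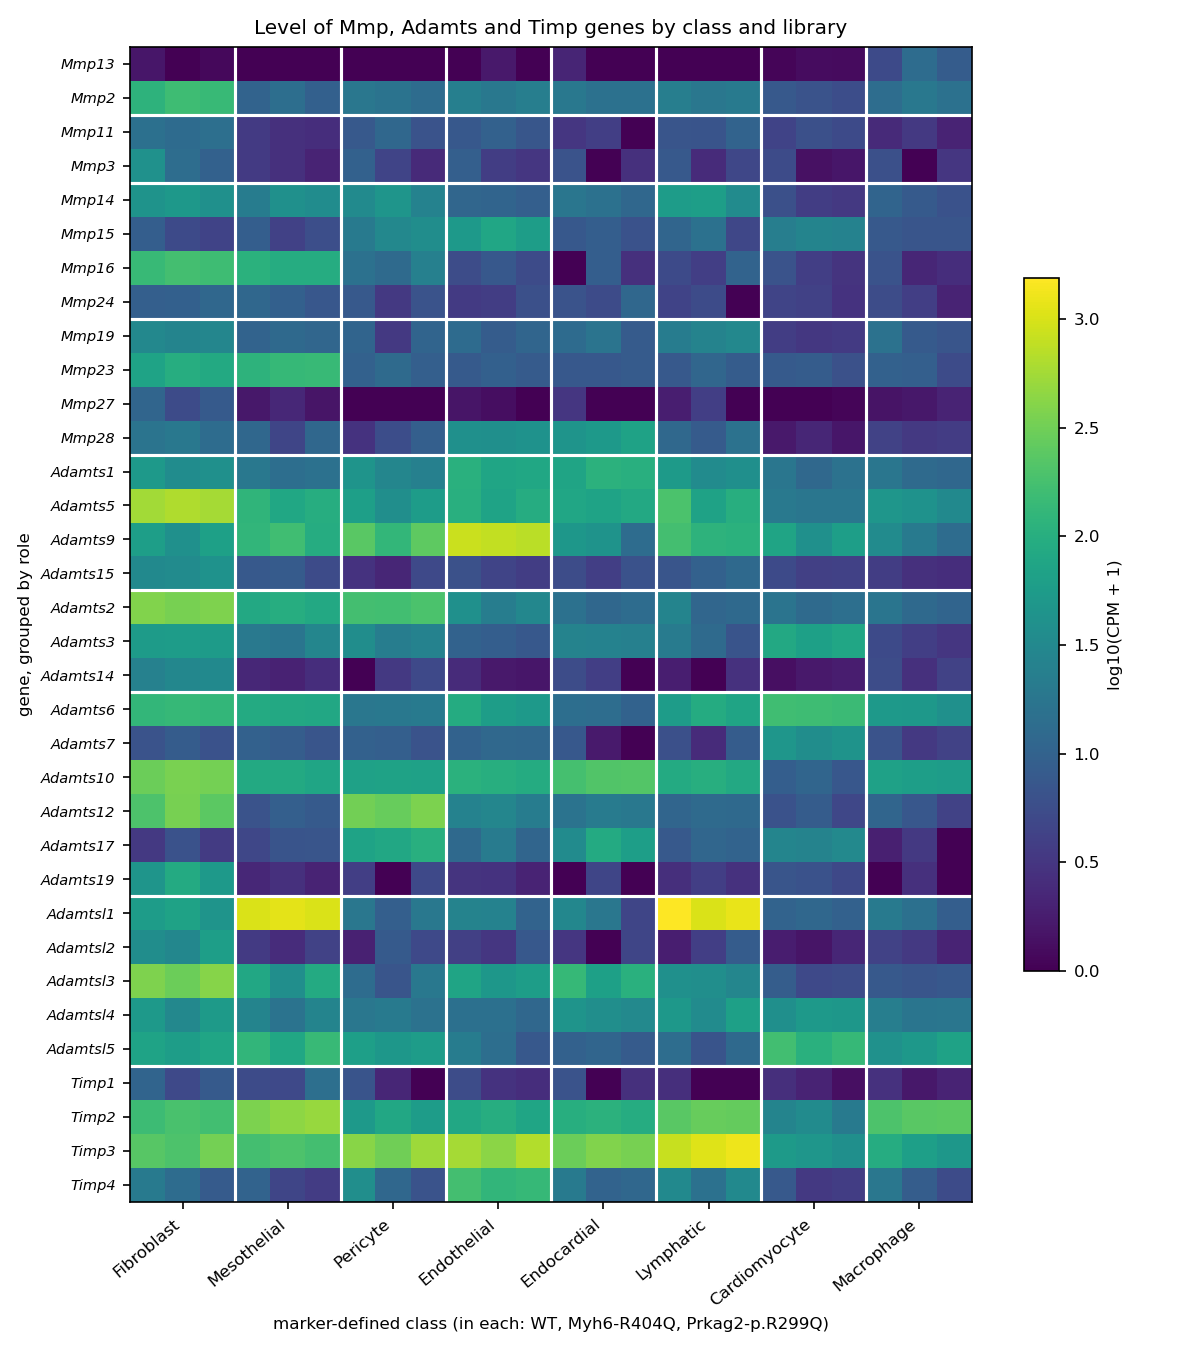
Level of the 34 members that reached 10 CPM, as log10(CPM + 1), in 8 marker-defined classes. Each class has a column for WT, Myh6-R404Q and Prkag2-p.R299Q in that order, and white lines separate classes and role groups. Adamts9 is brightest in endothelial-like cells and Adamtsl1 in lymphatic endothelial-like and mesothelial-like cells in all 3 columns.

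Among the collagenases and gelatinases, Mmp2 (gelatinase A) was a fibroblast transcript at 115, 156 and 140 CPM in WT, Myh6-R404Q and Prkag2-p.R299Q. The next highest class lay 5.07, 8.58 and 6.36 times lower. At equal depth of 1000 UMIs per cell, Mmp2 was seen in 10.3%, 13.5% and 13.5% of fibroblast-like cells and in 1.22%, 1.38% and 1.72% of macrophage-like cells. Without thinning, the fibroblast shares were 16.1%, 24.3% and 28.3%. Thinning left out 796, 218 and 144 shallower fibroblast-like cells. Mmp13 (collagenase 3) had 9, 21 and 14 UMIs in macrophage-like cells and at most 1.11 CPM in any other compared class.

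The stromelysin Mmp3 was highest in fibroblast-like cells, at 39.9, 12.7 and 8.83 CPM. Mmp11 (stromelysin 3) stood at 13.99, 12.0 and 13.6 CPM in the same cells. The macrophage elastase Mmp12 stayed under 10 CPM in macrophage-like cells, with 20, 4 and 6 UMIs.

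Of the membrane-type Mmps, Mmp16 had 139, 172 and 156 CPM in fibroblast-like cells and 107, 92.7 and 93.4 in mesothelial-like cells, the cells that cover the heart. Mmp14, which activates pro-Mmp2 on the cell surface, was spread over lymphatic endothelial-like cells (56.5, 60.9 and 34.0 CPM), fibroblast-like cells (43.0, 48.6 and 38.7 CPM) and other stromal classes. Mmp15 was highest in endothelial-like cells at 52.9, 77.2 and 59.5 CPM. Other Mmps differed again by class: Mmp23 was highest in mesothelial-like cells (116, 135 and 141 CPM) and Mmp28 in endocardial-like cells (44.4, 51.8 and 68.2 CPM).

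The proteoglycan-cleaving Adamts genes split between stroma and endothelium. Adamts5, an aggrecanase and versicanase, was a fibroblast transcript at 560, 639 and 575 CPM, and the next class lay 2.94, 8.08 and 5.74 times lower. Adamts9, which also cleaves versican, was highest in endothelial-like cells at 861, 781 and 730 CPM. It was seen in 47.2%, 44.9% and 40.1% of them at 1000 UMIs per cell (46.8%, 50.2% and 52.9% without thinning). In macrophage-like cells the thinned shares were 2.91%, 2.14% and 1.19%.

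The procollagen N-proteinases were not distributed alike. Adamts2 stood at 388, 343 and 372 CPM in fibroblast-like cells, with pericyte-like cells next at 171, 166 and 195 CPM. Adamts14 was highest in fibroblast-like cells at 23.9, 28.9 and 31.6 CPM. Adamts3 was highest in cardiomyocyte-like cells at 82.5, 63.2 and 75.4 CPM, followed by fibroblast-like cells at 56.0, 57.6 and 55.9 CPM.

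Of the other Adamts genes, Adamts6 and Adamts7 were highest among the compared classes in cardiomyocyte-like cells, at 161, 158 and 146 CPM and at 46.8, 35.7 and 42.1 CPM. Adamts10, an enzyme tied to fibrillin microfibrils, was highest in fibroblast-like cells (297, 353 and 331 CPM). Adamts12 was shared between pericyte-like cells (320, 279 and 359 CPM) and fibroblast-like cells (199, 338 and 246 CPM).

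The Adamts-like genes were highest in different classes. Adamtsl1 stood at 1548, 1015 and 1230 CPM in lymphatic endothelial-like cells and at 1024, 1132 and 1012 CPM in mesothelial-like cells, against at most 67.7 CPM in fibroblast-like cells. Adamtsl2 and Adamtsl3 were highest in fibroblast-like cells, the latter at 368, 297 and 410 CPM. Adamtsl5 was highest in cardiomyocyte-like cells of WT and Myh6-R404Q (165 and 105 CPM) and in mesothelial-like cells of Prkag2-p.R299Q (141 CPM).

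The 4 inhibitors also divided by class. Timp3, which binds to the matrix itself, was highest in lymphatic endothelial-like cells at 839, 1090 and 1274 CPM. Timp2 was highest in mesothelial-like cells at 360, 441 and 500 CPM and was present in macrophage-like cells at 199, 232 and 241 CPM. Timp4 was highest in endothelial-like cells at 170, 123 and 137 CPM. Timp1, known to be induced by inflammation and injury, was under 10 CPM in every compared class of WT and Myh6-R404Q and reached 13.4 CPM in mesothelial-like cells of Prkag2-p.R299Q.

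Genotypes were then set side by side within a class. A member was called higher or lower when it had at least 10 CPM in either library, differed at least 1.5-fold and had an exact conditional binomial interval that left out 1. Its level in the higher library also had to reach 1/5 of its level in the class where it was highest, as a guard against free RNA. A measured member that missed the guard could not be called at any ratio. It still counts among the measured, for members and for all genes. In fibroblast-like cells 25 or 26 measured members passed the guard, depending on the comparison, and in mesothelial-like cells 15 to 17. Both comparisons with WT share the WT library. In sums over a class, a change in the mix of its cells and a change of level per cell cannot be told apart without the clusters given below. Gene spans are those of mm10.

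In fibroblast-like cells of Myh6-R404Q, Adamts12 and Adamts19 were higher than in WT, and Mmp3, Mmp27, Adamts1 and Adamtsl4 were lower. That is 2 higher and 4 lower of 28 measured members. Over all 10496 genes measured in these cells, 3.86% were called higher and 3.33% lower. The median log2 ratio was 0.05 over the measured members and 0.01 over all genes.

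Adamts12 (chr15:11064790-11349231), a protease that can degrade cartilage oligomeric matrix protein, had 1425, 2001 and 1446 UMIs in fibroblast-like cells of the 3 libraries, or 199, 338 and 246 CPM. Myh6-R404Q was the highest, at 1.69 times the WT level (1.58 to 1.81). At 1000 UMIs per cell it was seen in 16.0%, 25.4% and 18.1% of the cells, and in 1.13%, 0.629% and 0.132% of macrophage-like cells. Without thinning the fibroblast shares were 22.9%, 40.1% and 36.4%.

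Adamts19, an Adamts gene whose loss is known to affect heart valves, had 45.5, 87.6 and 52.3 CPM. Its ratio of Myh6-R404Q to WT was 1.93 (1.67 to 2.22), and WT and Prkag2-p.R299Q lay close together.

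Mmp3 (chr9:7445822-7455975) had 285, 75 and 52 UMIs in fibroblast-like cells. WT was the highest of the 3, and the Myh6-R404Q level was 0.318 times that of WT (0.243 to 0.411). WT also had the highest Mmp3 level in each of the other 7 compared classes, at 2.49 to 8.67 CPM there. At 1000 UMIs per cell Mmp3 was seen in 3.01%, 0.897% and 0.956% of fibroblast-like cells and in 0.469%, 0% and 0.132% of macrophage-like cells (3.87%, 1.62% and 1.83% of fibroblast-like cells without thinning).

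Stress transcripts were also lower than in WT in these cells of both mutants. The median log2 ratio of 13 immediate early genes, Fos and Jun among them, against WT was -0.57 in fibroblast-like cells of Myh6-R404Q and -0.49 in those of Prkag2-p.R299Q. For 11 heat shock genes the medians were -0.91 and -0.44, and they were negative in all 8 compared classes of both mutants. For Prkag2-p.R299Q over Myh6-R404Q in fibroblast-like cells the immediate early median was -0.04 and the heat shock median 0.36. Mmp3 was 0.70 times there (0.48 to 1.01). Such genes can respond to enzymatic dissociation, and their part in the Mmp3 values was not tested.

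Mmp27 (chr9:7571396-7581885), a neighbour of Mmp3, had 10.1, 4.39 and 6.96 CPM in WT, Myh6-R404Q and Prkag2-p.R299Q, from 72, 26 and 41 UMIs. Its Myh6-R404Q ratio was 0.436 (0.267 to 0.691). Adamts1 (chr16:85793827-85803113), a versicanase, had 52.3, 34.4 and 38.5 CPM and a ratio of 0.658 (0.552 to 0.783). Adamtsl4 (chr3:95676201-95687917), which binds fibrillin 1, had 51.9, 29.5 and 53.3 CPM and a ratio of 0.569 (0.473 to 0.683), with Myh6-R404Q alone low. The Mmp27 and Adamts1 calls were lost when cells were thinned to 1000 UMIs.

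In fibroblast-like cells of Prkag2-p.R299Q, 1 member was higher than in WT and 1 lower, of 29 measured, against 3.08% and 3.33% of 10466 genes. Adamtsl2 (chr2:27079379-27108981), a regulator of fibrillin microfibrils and of TGF-beta availability, had 254, 172 and 354 UMIs, or 35.5, 29.0 and 60.1 CPM. Prkag2-p.R299Q was the highest, at 1.69 times WT (1.44 to 1.995). The lower member was Mmp3, at 0.221 times WT (0.162 to 0.298). The median log2 ratio was 0.07 over the members and -0.003 over all genes.

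**Figure D2:**
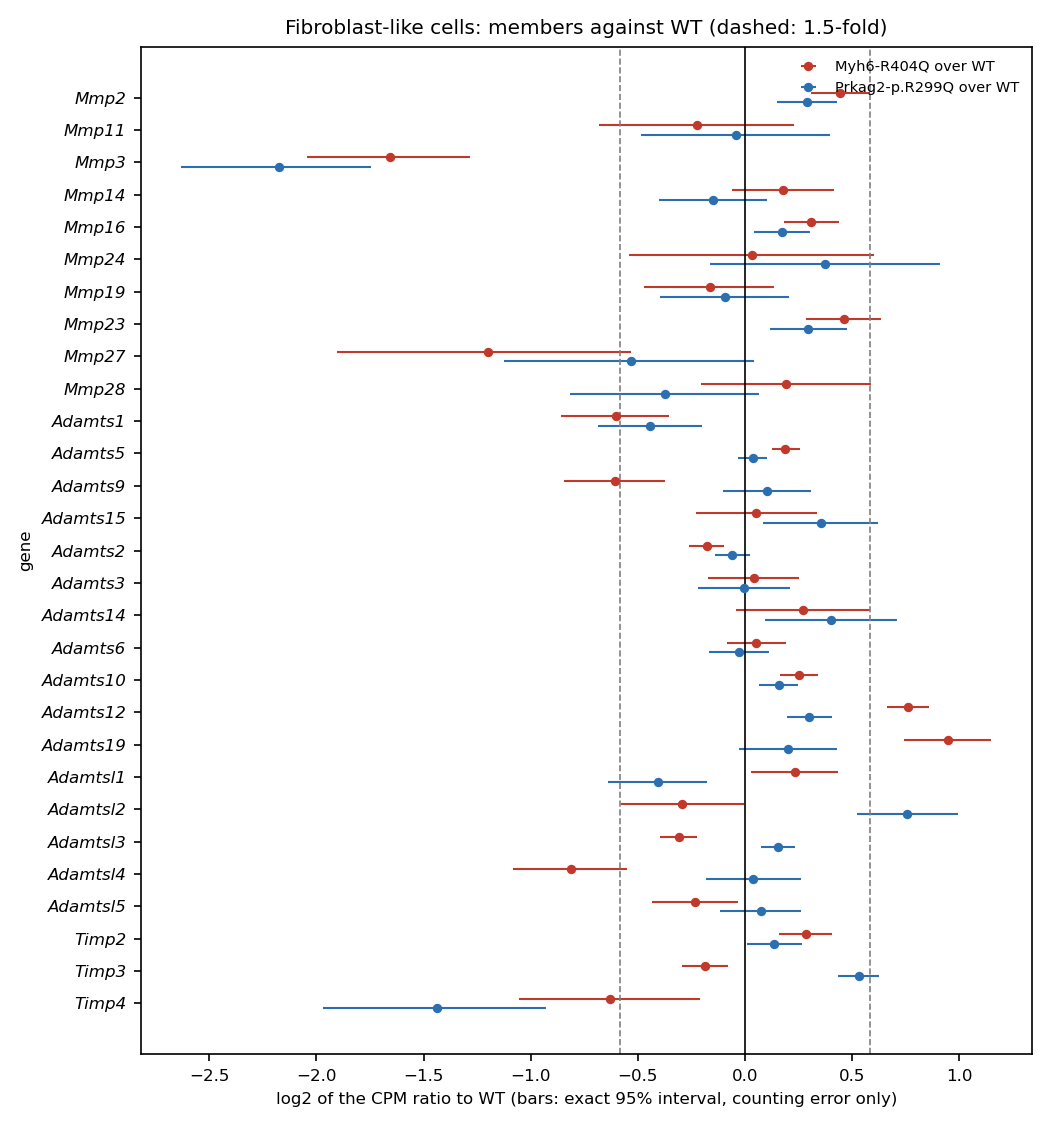
Ratio of each measured member to WT in fibroblast-like cells on a log2 axis, for Myh6-R404Q (red) and Prkag2-p.R299Q (blue), with exact 95% intervals that cover counting error only and dashed lines at 1.5-fold. Mmp3 lies far to the left in both, at 0.318 and 0.221 times WT, and most other members lie between the dashed lines. Adamts9 and Timp4 pass a dashed line but not the guard against free RNA.

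Set directly against Myh6-R404Q, fibroblast-like cells of Prkag2-p.R299Q had 3 members higher and 1 lower of 28 measured, against 2.25% and 2.26% of 10453 genes. Adamtsl2 was 2.07 times as high (1.72 to 2.50), Adamtsl4 was 1.81 times (1.496 to 2.18) and Timp3 was 1.64 times (1.53 to 1.77). Timp3 (chr10:86300372-86349506) had 228, 200 and 330 CPM, so WT lay between the mutants. Adamts19 was lower, at 0.597 times the Myh6-R404Q level (0.517 to 0.689). The Adamtsl4 call was lost with thinned cells. Neither Timp3 nor Adamts19 in Prkag2-p.R299Q was called against WT. Between the mutants, Adamts9 at 1.635 times (1.38 to 1.93) did not pass the guard against free RNA. Adamtsl1 at 0.642 times (0.547 to 0.753) and Timp4 at 0.571 times (0.381 to 0.845) did not pass it either.

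By role, no collagenase, gelatinase, membrane-type Mmp or procollagen N-proteinase was called in fibroblast-like cells in any of the 3 comparisons. Mmp2, the 1 measured collagenase or gelatinase of 5, had a log2 ratio to WT of 0.44 for Myh6-R404Q and 0.29 for Prkag2-p.R299Q. Of the 5 Adamts-like genes, all measured, each mutant had 1 called against WT. Of the 4 inhibitors, 3 were measured and none of these was called against WT. Timp1 was under the minimum, with 24 and 41 UMIs in Myh6-R404Q and Prkag2-p.R299Q (4.05 and 6.96 CPM). In the cluster led by Col8a1, described below, its ratios to WT were 0.263 (0.135 to 0.492) and 0.450 (0.26 to 0.76). Intervals held 1 in the clusters led by C7, Pi16 and Fbn2, with Pi16 ratios of 1.08 and 1.54. Timp4, at 12.5 CPM in Myh6-R404Q and 7.13 CPM in Prkag2-p.R299Q, was past 1.5-fold lower than WT in both. It was not called because it did not pass the guard against free RNA.

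The fibroblast-like class held 4 clusters in proportions that differed by library. The cluster led by C7 held most of the WT cells (2350 of 4320), and the cluster led by Col8a1 held most of the Myh6-R404Q cells (1568 of 2895) and of the Prkag2-p.R299Q cells (1335 of 2237). The smaller clusters were led by Pi16 and by Fbn2. Median depth was 1302 UMIs in the C7 cluster and 2311 in the Col8a1 cluster, and WT was the shallowest library. The part of depth in the proportions was not tested. Every fibroblast call lay on the same side of 1 in all 4 clusters. The interval left out 1 in all 4 for Adamts12 in Myh6-R404Q against WT, and in 3 of the 4 for Mmp3 in both comparisons, Adamts19, Adamtsl4 and Adamtsl2 against WT. It did so in 2 for Adamts1 and in 1 for Mmp27.

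Mmp3 in the C7 cluster had 46.9, 17.0 and 5.996 CPM in WT, Myh6-R404Q and Prkag2-p.R299Q, and in the Col8a1 cluster 47.6, 13.6 and 10.0 CPM. Its WT level was lower in the Pi16 and Fbn2 clusters, at 17.4 and 21.9 CPM. Adamts19 differed most between Myh6-R404Q and WT in the Pi16 cluster, with 57.9, 174 and 63.3 CPM, a ratio of 3.01 (2.20 to 4.16), and least in the Col8a1 cluster at 1.39 (1.12 to 1.74). For Adamts12 the 4 ratios ran from 1.56 to 1.94. With the 4 clusters weighted equally, Adamts1 in Myh6-R404Q against WT and Timp3 between the mutants were no longer called.

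**Figure D3:**
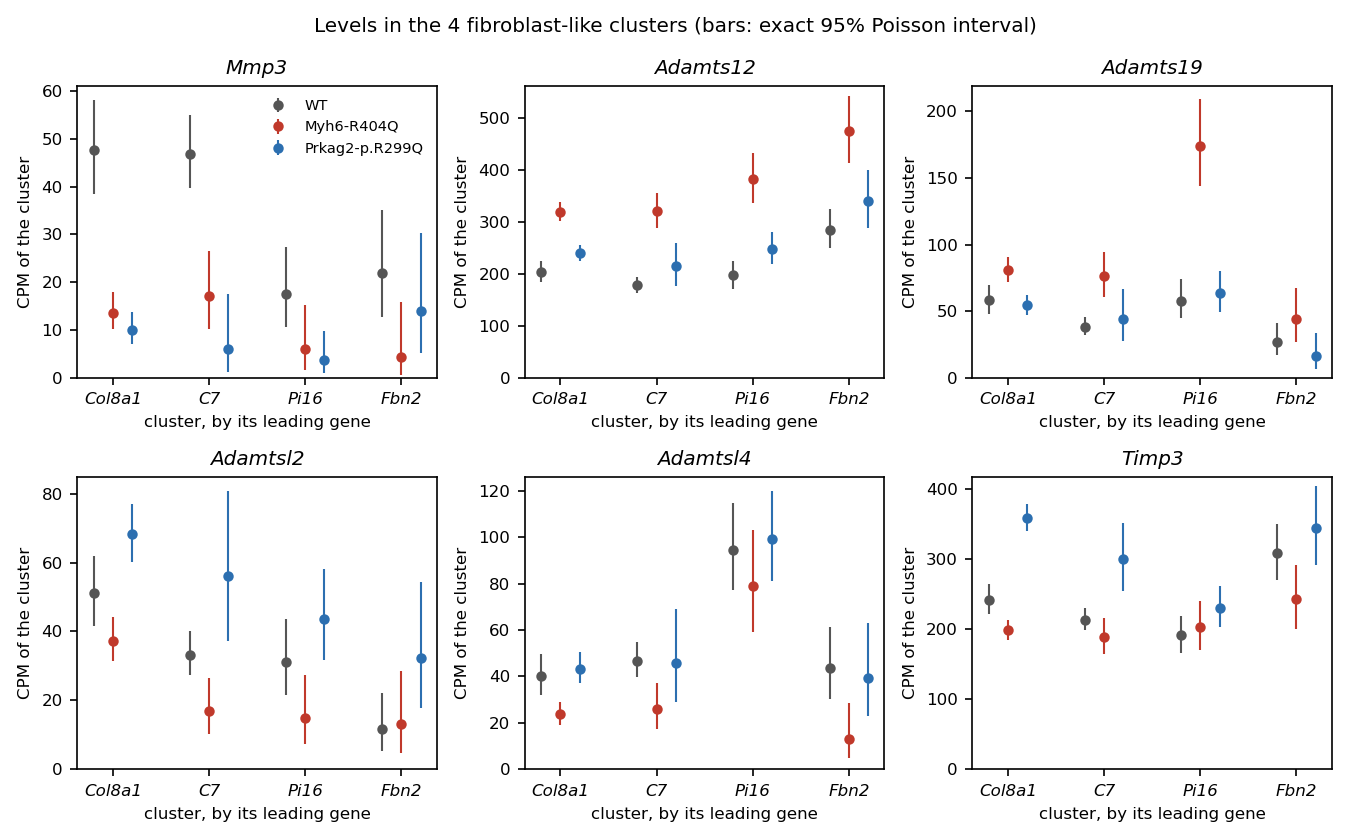
Level of 6 called members in the 4 fibroblast-like clusters, each named by its leading gene, in WT (grey), Myh6-R404Q (red) and Prkag2-p.R299Q (blue), in CPM of the cluster with exact Poisson 95% intervals. Mmp3 is highest in WT in all 4 clusters, Adamts12 and Adamts19 are highest in Myh6-R404Q in all 4, and Adamtsl2 and Timp3 are highest in Prkag2-p.R299Q in all 4.

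A list of 50 genes next to the family in the same pathway was read as well: plasminogen activators, serpins, cathepsins, Adams, procollagen-processing enzymes, lysyl oxidases and clearance receptors. In fibroblast-like cells of Myh6-R404Q, 42 were measured, with 3 higher than in WT (Fap, Ctsl and Serpinf1) and 5 lower, among them Serpinh1, Tll2, Adam12 and Thbs1, where 3.86% and 3.33% of all genes were called. Fap, a serine protease of activated fibroblasts, had 169, 300 and 186 CPM in WT, Myh6-R404Q and Prkag2-p.R299Q, a Myh6-R404Q ratio of 1.78 (1.65 to 1.91). Serpinh1, the collagen chaperone Hsp47 and itself a heat shock protein, stood at 163, 84.6 and 131 CPM.

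In Prkag2-p.R299Q, 43 of the listed genes were measured, with 3 higher than in WT and 2 lower (3.08% and 3.33% of all genes). Pcsk6, a proprotein convertase, had 792, 732 and 1196 CPM in WT, Myh6-R404Q and Prkag2-p.R299Q. Loxl2, a collagen cross-linking oxidase, was 1.67 times as high as in WT (1.41 to 1.97), and Serpinf1, an antiangiogenic serpin, also 1.67 times (1.36 to 2.07). Adam12 was 0.584 times the WT level (0.494 to 0.688) and Bsg, an inducer of Mmps, 0.638 times (0.555 to 0.732). Against Myh6-R404Q, 5 of 43 were higher, among them Serpinh1, Pcsk6, Tll2 and Ctsk, and Fap was lower (2.25% and 2.26% of all genes).

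Over all 8 classes, 164 pairs of a member and a class were measured in Myh6-R404Q against WT, of which 8 were higher and 18 lower, or 4.88% and 10.98%. Over all genes the shares were 5.14% and 3.14%. In Prkag2-p.R299Q against WT, 6 pairs were higher and 8 lower of 159, or 3.77% and 5.03%, against 3.81% and 3.07% over all genes. Between the mutants, 13 were higher in Prkag2-p.R299Q and 5 lower of 161, or 8.07% and 3.11%, against 2.34% and 3.51% over all genes. Pairs of 1 gene in several classes are not independent, since they share a library and its free RNA.

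Endocardial-like cells had the widest Adamts17 difference. This member stood there at 33.3, 87.7 and 61.0 CPM, with ratios of 2.63 (1.76 to 4.07) and 1.83 (1.09 to 3.10), so both mutants lay above WT. Adamtsl3 had 134, 63.3 and 104 CPM in the same cells, and Myh6-R404Q was lowest at 0.471 times WT (0.354 to 0.625). Adamts1 had 71.0, 112 and 102 CPM, 1.58 times WT in Myh6-R404Q (1.17 to 2.15). Summed fibroblast markers in these cells were 1268, 1310 and 1308 CPM. The calls of Adamts1, and of Adamts17 in Prkag2-p.R299Q, were lost with thinned cells. In all, 2 members were higher and 1 lower of 20 measured in Myh6-R404Q (4.77% and 3.27% of all genes). In Prkag2-p.R299Q, 1 was higher and none lower of 20 (3.78% and 3.45% of all genes). Between the mutants, Adamtsl3 was 1.65 times as high in Prkag2-p.R299Q (1.16 to 2.32), a call lost with thinned cells. It was the 1 call of 21 measured (2.57% of all genes higher and 3.52% lower). Of these 21, 12 passed the guard against free RNA, as did 11 and 12 of those measured in Myh6-R404Q and Prkag2-p.R299Q against WT. Between the mutants, Adamts9 at 0.296 times (0.114 to 0.649) and Adamtsl1 at 0.208 times (0.024 to 0.838) did not pass it. No other member stopped by it there was past 1.5-fold.

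In endothelial-like cells Adamts6 had 89.9, 58.2 and 51.8 CPM in WT, Myh6-R404Q and Prkag2-p.R299Q, so WT was highest, with ratios of 0.648 (0.540 to 0.776) and 0.576 (0.454 to 0.725). Adamts17 was 1.74 times as high in Myh6-R404Q (1.18 to 2.61), from 46 and 63 UMIs. The calls of both genes in Myh6-R404Q were lost with thinned cells. They were also lost with fine clusters weighted equally and with the clusters of the class weighted equally. These were the calls against WT among 21 measured members in each mutant: 1 higher and 1 lower in Myh6-R404Q (3.34% and 2.92% of all genes) and none higher and 1 lower in Prkag2-p.R299Q (3.59% and 2.6% of all genes). Timp3 had 567, 431 and 665 CPM, and Prkag2-p.R299Q was 1.54 times Myh6-R404Q (1.43 to 1.67). Adamts17 was 0.497 times (0.277 to 0.851) in that same comparison of the mutants. Its call was lost with thinned cells and with the clusters of the class weighted equally. Of all genes, 1.87% were higher and 1.99% lower between the mutants. The guard against free RNA was passed by 13 of the measured members in Myh6-R404Q against WT. It was passed by 12 in Prkag2-p.R299Q against WT and by 12 between the mutants. Between the mutants, Adamtsl1 at 0.370 times (0.205 to 0.630) and Adamtsl5 at 0.497 times (0.238 to 0.962) did not pass it.

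Lymphatic endothelial-like cells had 22 members measured in Myh6-R404Q, with 1 higher and 3 lower (4.46% and 2.94% of all genes). Adamts5 had 191, 68.2 and 100.2 CPM in WT, Myh6-R404Q and Prkag2-p.R299Q. WT was well above both, with ratios of 0.357 (0.255 to 0.491) and 0.525 (0.382 to 0.711). Adamtsl1 was lower in Myh6-R404Q at 0.656 (0.600 to 0.716). Adamts9 had ratios of 0.651 (0.495 to 0.848) and 0.620 (0.454 to 0.835), calls that were made in only 3 of 9 other ways of processing. Its WT level of 173.8 CPM was just above 1/5 of the 860.9 CPM in endothelial-like cells, the limit of the guard, and the Prkag2-p.R299Q ratio was 0.960 with thinned cells. Adamts6 was 1.62 times as high in Myh6-R404Q (1.13 to 2.31). Summed fibroblast markers in these cells were 1065, 1106 and 1089 CPM. With thinned cells the Adamts6 call was lost. Of the 22 measured members, 13 passed the guard against free RNA.

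In the same cells of Prkag2-p.R299Q, 1 member was higher and 3 lower of 21 (3.29% and 3.66% of all genes). Timp3 was higher, at 1.52 times WT (1.38 to 1.68), and Adamts3 was lower from 24 and 3 UMIs, both calls lost with thinned cells. Between the mutants, Adamtsl4 was higher in Prkag2-p.R299Q and Mmp14 lower, each from at most 42 UMIs (2.07% and 3.52% of all genes). Both calls were lost with at least 1000 UMIs per barcode. The guard against free RNA was passed by 15 of the members measured against WT and by 12 of those between the mutants.

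In pericyte-like cells Adamts9 had 239, 129 and 249.5 CPM, so Myh6-R404Q stood apart at 0.540 times WT (0.427 to 0.679). Timp3 had 416, 316 and 530 CPM there, 1.68 times as high in Prkag2-p.R299Q as in Myh6-R404Q (1.43 to 1.97). Timp4 was lower than WT in both, from 38, 9 and 4 UMIs. Of 22 and 20 members measured against WT, 2 were lower in each mutant and none higher. Of all genes, 3.89% were higher and 2.44% lower in Myh6-R404Q, and 3.7% and 3.01% in Prkag2-p.R299Q. The second lower member in Prkag2-p.R299Q was Adamts1 at 0.538 (0.289 to 0.958), a call made in 6 of 9 other ways of processing, with ratios of 0.277 to 0.718. The summed endothelial markers in these cells were 1001, 691 and 561 CPM, against 7178 to 7316 CPM in endothelial-like cells, and moved with Timp4 and with Adamts1, both highest in endothelial-like cells of WT; their part was not tested. The Timp4 calls were lost with thinned cells, and the Adamts9 call with fine clusters weighted equally. Between the mutants, Adamts9 and Timp3 were higher in Prkag2-p.R299Q and Mmp14 lower, the last from 38 and 18 UMIs (2.34% and 3.71% of all genes). The Mmp14 call was lost with fine clusters weighted equally. The guard against free RNA was passed by 13 of the measured members in each mutant against WT and by 12 between the mutants.

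Mesothelial-like cells had the most calls in Myh6-R404Q outside fibroblasts, with 1 member higher and 5 lower of 20 (5.83% and 3.13% of all genes). Mmp14 had 20.6, 38.8 and 34.9 CPM, higher than WT in both mutants at 1.89 (1.29 to 2.84) and 1.70 (1.10 to 2.66). Adamtsl3 had 81.6, 36.5 and 86.9 CPM and Adamtsl5 126, 77.6 and 141 CPM, each with Myh6-R404Q alone low. The other lower members were Adamtsl4, Adamts5 and Mmp28, the last from 17 and 14 UMIs. The calls of Adamtsl3, Adamtsl4 and Mmp28 were lost with thinned cells, as was that of Mmp14 in Prkag2-p.R299Q, and the Adamts5 call was lost with doublets removed at the expected rate. Summed fibroblast markers in these cells were 2689, 4320 and 3066 CPM, and their part was not tested.

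In mesothelial-like cells of Prkag2-p.R299Q, 2 members were higher than in WT and none lower of 20 measured (5.64% and 2.15% of all genes). The higher members were Mmp14 and Timp1. Timp1 had 7, 16 and 25 UMIs in the 3 libraries, or 4.36, 4.11 and 13.4 CPM, 3.08 times WT in Prkag2-p.R299Q (1.29 to 8.42). The Timp1 call was not kept when cells were thinned to 1000 UMIs, where Prkag2-p.R299Q had no Timp1 UMI left. Against Myh6-R404Q, 5 members were higher (Adamtsl3, Adamtsl4, Adamtsl5, Adamts3 and Timp1) and Adamts9 was lower, of 20 measured (2.92% and 3.3% of all genes). With thinned cells the Adamts3 ratio turned from 1.70 to 0.875, the Timp1 ratio was 0 and the Adamtsl4 call was lost. The Adamts9 call was made in 6 of 9 other ways of processing, with ratios up to 0.784.

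Macrophage-like cells had 16 members measured for Myh6-R404Q and 15 for Prkag2-p.R299Q, of which 7 and 6 passed the guard against free RNA. Mmp13 was higher in Myh6-R404Q, with 4.13, 12.3 and 7.54 CPM in WT, Myh6-R404Q and Prkag2-p.R299Q, a ratio of 2.98 (1.31 to 7.39). Mmp19, an Mmp first described as an autoantigen, was lower in both mutants, from 33, 12 and 11 UMIs, at 0.464 (0.218 to 0.923) and 0.391 (0.178 to 0.793) times WT. Both of these genes' calls were lost with thinned cells. Adamtsl5 was 1.71 times WT in Prkag2-p.R299Q (1.29 to 2.28), with 39.96, 49.8 and 68.4 CPM. Of all genes in these cells, 7.11% were higher and 4.57% lower in Myh6-R404Q, and 4.24% and 4.35% in Prkag2-p.R299Q. Between the mutants none of 13 members was called, against 3.23% of all genes higher and 4.58% lower. Of these 13, 5 passed the guard.

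Cardiomyocyte-like cells had 1 call against WT among 15 members in Myh6-R404Q and none among 13 in Prkag2-p.R299Q. Of all genes, 8.25% were higher and 2.4% lower in Myh6-R404Q, and 3.05% and 1.83% in Prkag2-p.R299Q. Between the mutants none of 15 was called (1.37% of all genes higher and 5.43% lower). In each of the 3 comparisons, 7 of the measured members passed the guard against free RNA. Between the mutants, Adamts9 in Prkag2-p.R299Q was 1.55 times Myh6-R404Q (1.35 to 1.80) but did not pass it. Timp2 at 0.573 times (0.470 to 0.698) and Adamts10 at 0.622 times (0.43 to 0.89) did not pass it either. Adamtsl5 had 1477 UMIs in WT and 791 in Myh6-R404Q, or 165, 105 and 136 CPM over the 3 libraries, with Myh6-R404Q the lowest at 0.637 times WT (0.583 to 0.695).

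**Figure D4:**
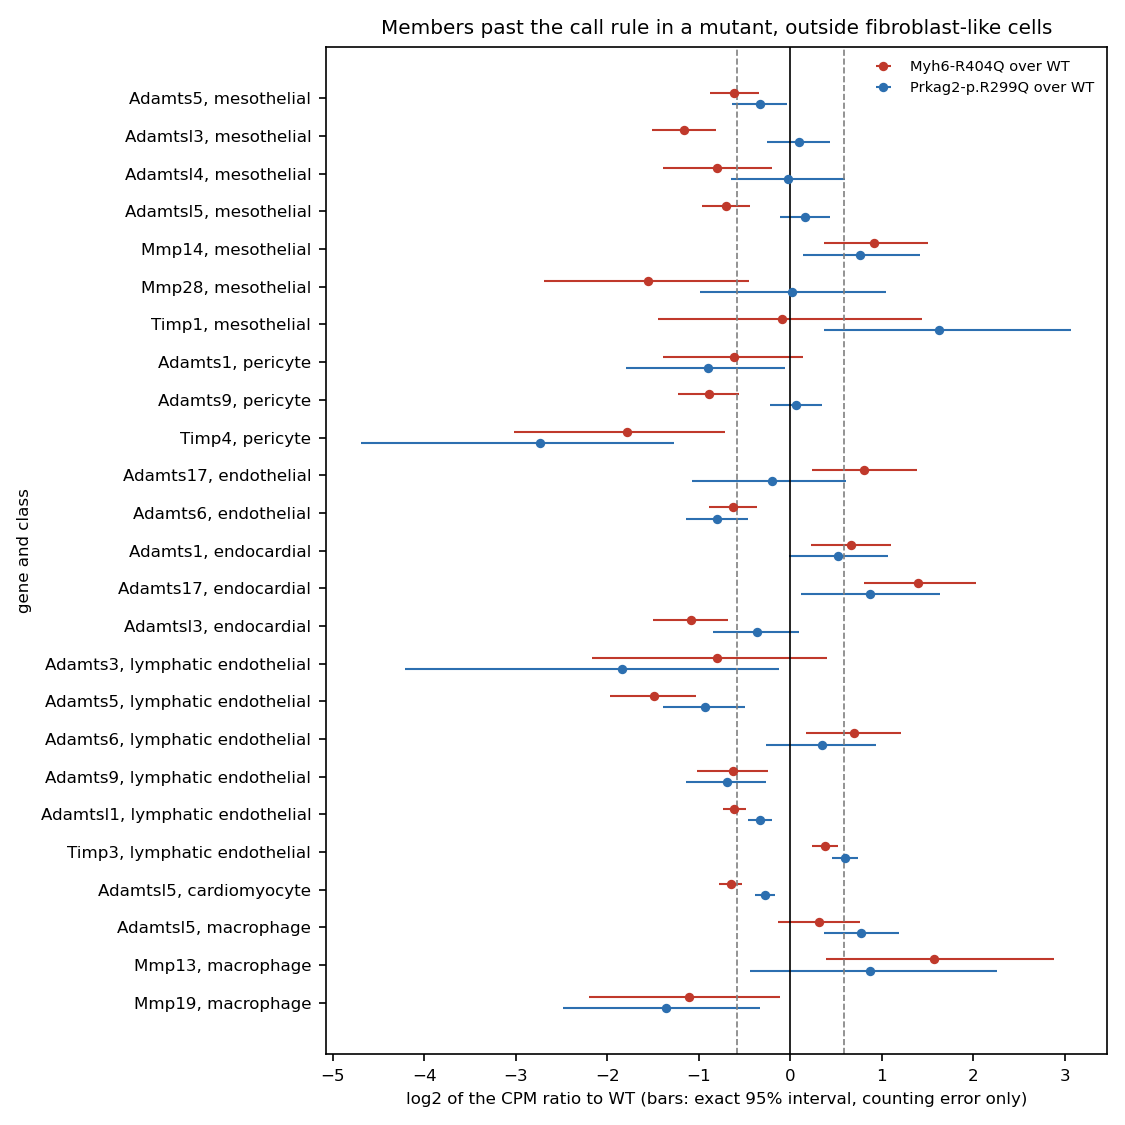
Ratio to WT on a log2 axis for each pair of a member and a class outside fibroblast-like cells that was called in either mutant, for Myh6-R404Q (red) and Prkag2-p.R299Q (blue), with exact 95% intervals that cover counting error only and dashed lines at 1.5-fold. Intervals are wide for pairs with few UMIs, such as Timp4 in pericyte-like cells and Mmp13 in macrophage-like cells. Both mutants lie right of 0 for Adamts17 in endocardial-like and Mmp14 in mesothelial-like cells, and left of it for Adamts5 in lymphatic endothelial-like and Adamts6 in endothelial-like cells.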

How the data were processed

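The authors deposited UMI counts per gene and barcode, made with Cell Ranger 7.0.1 on mm10, per the submitters' processing notes; the sources used here do not say whether intronic reads were counted. The Myh6-R404Q matrix is an aggregate: its barcodes of suffix 1 and suffix 2 equal the Prkag2-p.R299Q and WT matrices with 0 differing entries, so suffix 3 was used, by elimination.

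Barcodes under 500 UMIs or 300 genes, or over 20% mitochondrial UMIs, were left out, and 18033, 12661 and 7951 passed. Scrublet in scanpy 1.11.5 removed 3202, 2106 and 1111 doublets in WT, Myh6-R404Q and Prkag2-p.R299Q (17.8%, 16.6% and 13.97%, where 14.4%, 10.1% and 6.36% were expected). Free RNA was not removed. From 2000 variable genes without the members, 30 components and 20 neighbours, leidenalg 0.10.2 at resolution 0.8 gave 22 clusters, named from marker lists and carrying "-like" in the text. UMIs were summed per class and library, and CPM is of the class total. Log2 ratios of medians used a pseudocount of 1 CPM. Ratio intervals are exact conditional binomial and level intervals exact Poisson.

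The call rule, apart from its guard, was checked on simulated counts of 10129 genes with counting error only. For Myh6-R404Q against WT in fibroblast-like cells it found 100% of genes raised 2-fold and 96.0% of those lowered 2-fold, and called 0.454% of unchanged genes. Only 1 class was simulated, so the guard against free RNA could stop no call. The totals were those of fibroblast-like cells, 7147350 UMIs in WT and 5924540 in Myh6-R404Q. The shares do not hold for classes with fewer UMIs, which were not simulated. Named with values were the members called and the leading members of each role. Gene coordinates are from GENCODE M21, in which all 50 members were found. The members and gene lists were chosen with earlier results of these data known. The values of 1 listed gene outside the family are not reported here. Alternatives changed the level minimum, fold, pseudocount, scaling, depth, doublets, clustering, cluster weights and Myh6-R404Q barcodes.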

Additional observations from a re-analysis of the deposited data

Results flagged for a closer look

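A few members had ratios called in opposite directions in different classes under the same comparison. None of these differences was tested, as there was 1 library per genotype. Adamts6 in Myh6-R404Q against WT was 1.62 times in lymphatic endothelial-like cells and 0.648 times in endothelial-like cells. Adamts1 in the same comparison was 1.58 times in endocardial-like cells and 0.658 times in fibroblast-like cells. Adamts9 in Prkag2-p.R299Q against Myh6-R404Q was 1.93 times in pericyte-like cells and 0.574 times in mesothelial-like cells. With thinned cells neither Adamts6 call and neither Adamts1 call was made. The mesothelial-like Adamts9 call was made in 6 of 9 other ways of processing, with ratios of 0.561 to 0.784, so the opposite directions rest on calls that were not always made.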

How the results depend on the processing

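Of the 58 calls over the 3 comparisons and 8 classes, 39 were lost at a minimum ratio of 2-fold, 21 at a minimum of 50 CPM, 28 with cells thinned to 1000 UMIs, 18 with fine clusters weighted equally, 9 with at least 1000 UMIs per barcode, 7 with doublets removed at the expected rate, 6 with the clusters of a class weighted equally (an alternative chosen after seeing the data) and at most 4 under each change of scaling, clustering resolution or variable genes. Under the 9 alternatives that left the level minimum, the fold and the Myh6-R404Q barcodes as they were, 11 of 26 calls in Myh6-R404Q against WT, 5 of 14 in Prkag2-p.R299Q against WT and 7 of 18 between the mutants were made each time. Mmp3, Adamts12, Adamts19 and Adamtsl4 in fibroblast-like cells of Myh6-R404Q, and Mmp3 and Adamtsl2 in those of Prkag2-p.R299Q, were among them.

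In fibroblast-like cells the 6 calls in Myh6-R404Q against WT became 2 at 2-fold and 1 with the Myh6-R404Q matrix as deposited, which mixes in the other libraries by construction. The 2 in Prkag2-p.R299Q against WT became 1 at 50 CPM, 4 with thinned cells and 1 at 2-fold, and the 4 between the mutants became 1 at 2-fold and 1 with the matrix as deposited. Over all classes, the 26 in Myh6-R404Q became 17 at 50 CPM, 10 at 2-fold and 4 as deposited. The 14 in Prkag2-p.R299Q became 7 at 50 CPM and 5 at 2-fold, and the 18 between the mutants became 4 at 2-fold and 2 as deposited. Members highest in fibroblast-like cells fell from 11 to 6 at 50 CPM. Mmp11, Adamts14, Adamts15, Adamtsl2 and Adamts19 were under 50 CPM in every compared class of at least 1 library. They thus no longer entered the count, and their highest class did not change. With thinned cells, ratios turned for Timp1 in mesothelial-like cells (0 against WT and 0 against Myh6-R404Q) and for Adamts3 there between the mutants (0.875), and the cause was not tested. Medians over fibroblast members stayed within the spread set for them. No paired analysis was possible because there was 1 library per genotype.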

Other observations

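Members under 10 CPM in the compared classes could be higher in classes with under 200 cells per library, where few UMIs were available. Mmp25, a leukocyte membrane-type Mmp, had 41.6, 27.0 and 44.1 CPM in T and NK-like cells (WT, Myh6-R404Q, Prkag2-p.R299Q), from 6, 4 and 4 UMIs, against at most 0.844 CPM in any compared class. Mmp12 had 24.6, 30.9 and 63.9 CPM in monocyte, neutrophil and dendritic-like cells, from 4, 7 and 8 UMIs. Adamts20 had 138, 287 and 117 CPM in Schwann-like cells, the glia of nerve fibres, from 16, 10 and 3 UMIs, against at most 8.26 CPM in a compared class. Adamts6 was higher in B cell-like cells (264, 312 and 302 CPM, from 16, 38 and 20 UMIs) than in any compared class (161, 158 and 146 CPM). In each of these 4 members the same small class was highest in all 3 libraries.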
